A study of Mus musculus with 9 samples.

Results

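The genes described here encode 35 glutamate and GABA receptor subunits, taken by symbol from a list of ionotropic and metabotropic receptor genes, out of 54232 genes in the count files. They comprise 4 AMPA, 5 kainate, 7 NMDA and 1 delta subunit, 7 metabotropic glutamate receptors, 9 GABA-A subunits and 2 GABA-B subunits. The list does not hold every subunit of these families. RNA was sequenced from wild-type CD1 mouse cortical neurons, and CD1 is an outbred mouse stock. There were 9 libraries in 3 groups of 3 repeats: PA + PS2, PA and control. PA stands for a peptide amphiphile, a short peptide joined to a fatty tail that self-assembles into nanofibres; its library names carry IKVAV, a laminin sequence that cells bind. The PA + PS2 library names carry IKVAV with PEDOT-S-OH, a polymer of the conducting PEDOT family, and the control names carry PDL. PS2 and PDL are not spelled out in the labels, which give neither the age of the cells nor times or amounts. Their treatment field names the amphiphile for the controls as well, so the groups follow the sample titles. Whether the repeats came from separate cultures is not stated; p-values therefore reflect only the spread among these libraries, which may be technical.

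Glutamate opens AMPA, kainate and NMDA receptor channels, each built from several subunits, and also acts on metabotropic receptors that signal through G proteins. GABA opens GABA-A receptor chloride channels and acts on the metabotropic GABA-B receptor. Subunit make-up sets the kinetics, calcium permeability and place of a receptor, and in rodent cortex it shifts as neurons mature, with the NMDA subunit gene Grin2a rising after birth relative to Grin2b.

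The libraries held 20746851 to 27237398 counts each, and 22064 to 23223 genes had at least 1 count in 8 of them, against 24702 in PA repeat 2. All 12 pan-neuronal markers were present in every library, with summed levels of 10332 to 11584 CPM (counts scaled to a common library size) in PA + PS2, 9474 to 11788 CPM in PA and 10112 to 11280 CPM in control. Of the markers of other cell types, those of interneurons summed to 1739 to 1834 CPM in PA + PS2, 1653 to 1818 CPM in PA and 1594 to 1993 CPM in control. Astrocyte markers, of which Gjb6 was at 0 in every library, summed to 275 to 319 CPM in PA + PS2, 341 to 368 CPM in PA and 269 to 385 CPM in control. Slc1a2 at 109 to 148 CPM and Atp1b2 at 74.6 to 94.9 CPM made up most of this sum. Gfap reached at most 4.53 CPM in any library, Aqp4 1.66 CPM and S100b 0.495 CPM. Fibroblast and mural markers summed to 12.7 to 58.6 CPM in PA + PS2, 91.5 to 161 CPM in PA and 138 to 198 CPM in control. Proliferating and progenitor markers summed to 157 to 181 CPM in PA + PS2, 236 to 321 CPM in PA and 185 to 365 CPM in control. Sums were 68.1 to 91.5, 84.2 to 91.0 and 74.4 to 97.8 CPM for the oligodendrocyte lineage in PA + PS2, PA and control, 8.29 to 11.3, 11.2 to 13 and 13.4 to 14.5 CPM for microglia, and 2.62 to 5.47, 5.64 to 8.50 and 6.86 to 10.1 CPM for endothelium.

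The subunits differed widely in level, down to genes at the edge of detection. Levels are given as FPKM, here CPM divided by exon length in kilobases, computed so that genes of different length can be compared. Gabbr1, the ligand-binding GABA-B subunit, was highest with a mean of 76.6 FPKM over the 9 libraries, followed by the AMPA subunit Gria1 at 67.5 FPKM and the kainate subunit Grik5 at 49.7 FPKM. In all, 13 subunits had a mean of at least 10 FPKM, 16 lay between 1 and 10 FPKM and 6 were under 1 FPKM. The last were Gabrd, Gabrg1, Grm8, Grin3b, Grin2c and Grm6. These levels depend on the length used. On the length of the longest coding transcript, Grin1 was at 25.8 FPKM rather than 11.4, Grik1 at 10.8, Grik2 at 10.3 and Grm8 at 1.06 FPKM. The length is fixed for a gene, so comparisons between groups do not depend on it. Grm6, which serves retinal bipolar cells, had 2 counts in control repeat 2 and 0 in the other 8 libraries, and it alone failed the filter on low counts, leaving 34 subunits for the tests. Only 6 of the 34 neighbouring pairs in the order of levels had ranges over the 9 libraries that did not overlap: Gabbr1 above Gria1, Grik5 above Gabra2, Gabbr2 above Grm5, Grik3 above Gria4, Grin2d above Gabrd, and Grin2c above Grm6. For the other neighbours the ranges over the libraries overlapped. An order can still hold within each library, as Gria1 was above Grik5 in all 9.

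**Figure D1:**
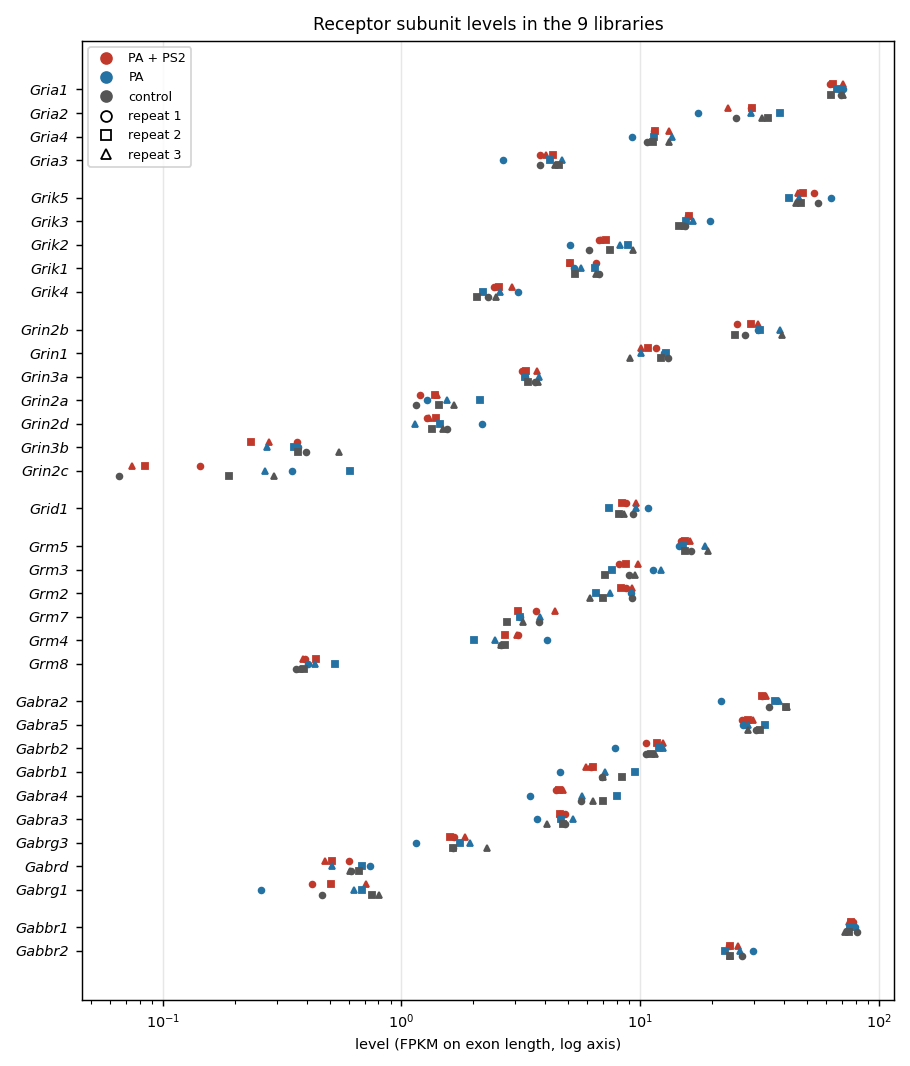
Level of each of the 34 tested subunits in the 9 libraries, in FPKM on a log axis, by family, with PA + PS2 in red, PA in blue and control in grey and the 3 repeats as circle, square and triangle. Subunits of 1 family lie far apart, such as Gria1 at 67.5 against Gria3 at 4.05 FPKM.

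The sequence just upstream of the start was read for subunits of different level. The RefSeq table of promoters (GRCm38.p6) held an entry for 25 of the 35 subunits, and the 250 bases before the start were read from it. Where a gene had several starts there, the one nearest its annotated start was used. Some windows overlap exons, and those of Grin2d and Gabrb2 lie inside the annotated gene. The 5 sequences printed are those of a high and a low subunit of the chromosome 5 GABA-A cluster (Gabra2 and Gabrg1), the obligatory NMDA subunit (Grin1), the subunit with the smallest unadjusted p (Grin2c) and the one that was nearly absent (Grm6). Gabra2 lies at chr5:71095850-71096099, minus strand, 18 CpG. Gabrg1 lies at chr5:70842618-70842867, minus strand, 1 CpG. Grin1 lies at chr2:25319188-25319437, minus strand, 27 CpG. Grin2c lies at chr11:115267244-115267493, minus strand, 15 CpG. Grm6 lies at chr11:50850435-50850684, plus strand, 4 CpG. Capitals mark the CpG pairs, and each sequence runs 5′ to 3′ toward the gene.
Gabra2: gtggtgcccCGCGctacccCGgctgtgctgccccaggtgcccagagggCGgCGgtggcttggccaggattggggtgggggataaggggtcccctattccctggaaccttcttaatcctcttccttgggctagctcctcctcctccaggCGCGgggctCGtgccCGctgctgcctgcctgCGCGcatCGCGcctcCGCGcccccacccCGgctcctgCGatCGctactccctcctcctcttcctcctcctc
Gabrg1: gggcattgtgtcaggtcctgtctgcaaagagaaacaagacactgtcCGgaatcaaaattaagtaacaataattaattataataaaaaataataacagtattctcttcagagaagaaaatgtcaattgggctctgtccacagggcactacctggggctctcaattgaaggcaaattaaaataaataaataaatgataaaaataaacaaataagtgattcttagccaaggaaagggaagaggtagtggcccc
Grin1: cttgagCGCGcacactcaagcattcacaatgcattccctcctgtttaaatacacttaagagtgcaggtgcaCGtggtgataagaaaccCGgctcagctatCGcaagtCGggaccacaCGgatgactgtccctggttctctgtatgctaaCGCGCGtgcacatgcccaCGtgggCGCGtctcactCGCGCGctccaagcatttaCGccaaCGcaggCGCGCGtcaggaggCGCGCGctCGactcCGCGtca
Grin2c: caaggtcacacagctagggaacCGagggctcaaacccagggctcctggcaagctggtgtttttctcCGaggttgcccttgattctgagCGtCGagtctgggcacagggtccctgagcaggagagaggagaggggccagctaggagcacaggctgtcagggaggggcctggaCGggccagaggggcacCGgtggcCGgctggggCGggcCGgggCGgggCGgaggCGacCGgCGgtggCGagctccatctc
Grm6: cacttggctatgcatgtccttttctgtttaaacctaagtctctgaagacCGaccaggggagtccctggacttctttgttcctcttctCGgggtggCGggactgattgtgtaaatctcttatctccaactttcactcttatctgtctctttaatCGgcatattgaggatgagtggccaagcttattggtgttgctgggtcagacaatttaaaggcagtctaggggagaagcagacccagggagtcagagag

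The median window of the 25 subunits held 15 CpG, against 6 in all 32851 windows of the table, whose quartiles were 2 and 16. Windows with 4 or fewer CpG were those of Gabra3 with 0, Gabrg1 with 1, Grin3b with 2 and Grm6 with 4, and 44.4% of all windows were as poor. Of these genes, Gabra3 was expressed at 4.59 FPKM and Gabrg1, Grin3b and Grm6 were under 1 FPKM, but Grin2c and Grm8 were under 1 FPKM too, with 15 and 29 CpG. The GC box GGGCGG, searched on both strands, was in 14 of the 25 windows and in 32.7% of all windows. TATAAA was in the windows of Gabrb2, Gabra3 and Grin3b, which is 3 of 25, against 12.4% of all windows. The cyclic AMP response element TGACGTCA was in none of the 25 and in 1.55% of all windows. These matches describe the letters only.

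**Figure D2:**
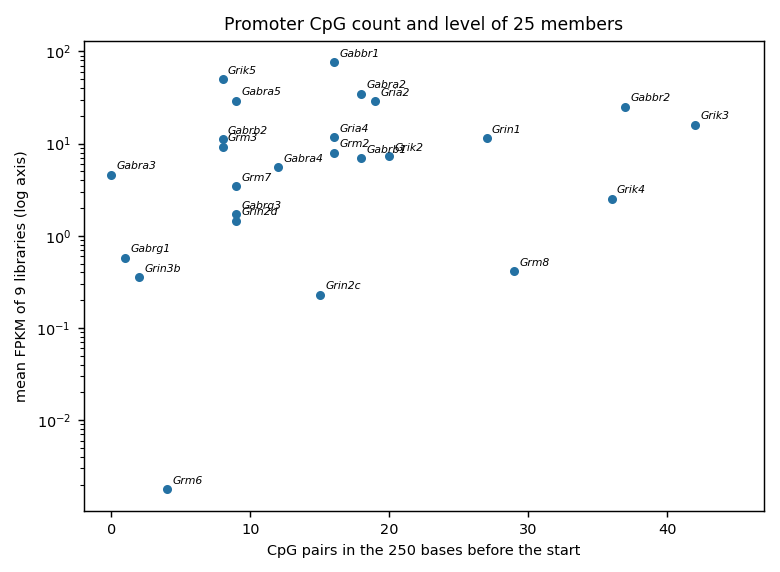
CpG pairs in the 250 bases before the start (x axis) against the mean FPKM of the 9 libraries (y axis, log) for the 25 subunits with a RefSeq promoter. The 4 CpG-poor subunits lie at the left, and low levels also occur at 15 and 29 CpG.

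No subunit passed the test in any comparison, and most estimates were close to no change. Against control, PA + PS2 had 0 of 34 subunits with an adjusted p under 0.05 by the quasi-likelihood test of edgeR, where 0.0446% of all 15712 genes passed (7 genes, and 184 or 1.17% with the repeat number as a block). None of the subunits had an unadjusted p under 0.05, as 5.63% of all genes did, and DESeq2 called 0 subunits and 1.43% of all genes. Between PA + PS2 and PA, edgeR called 0 subunits and 0% of all genes, 1 subunit (Grin2c) and 5.61% of all genes had an unadjusted p under 0.05, and DESeq2 called Grin2c and 0.815% of all genes. With the repeat block, edgeR called 0 subunits and 0.363% of all genes, and without the filter on low counts it called Grin2c and 1.04% of all genes. Between PA and control, edgeR called 0 subunits and 0% of all genes, 1 subunit (Grin2c) and 1.22% of all genes had an unadjusted p under 0.05, and DESeq2 called 0. Without the filter edgeR called 0 subunits and 0.0728% of all genes there, and 0 subunits and 1.15% of all genes in PA + PS2 against control. The 3 comparisons share their libraries in pairs and are not independent. The 95% interval of the fold change lay within 1.5-fold in either direction for 24 of 34 subunits in PA + PS2 against control (57.7% of all genes), for 24 in PA + PS2 against PA (56.9%) and for 23 in PA against control (58.8%). It lay within 2-fold for 31, 33 and 31 of the 34 in the same order (74.8%, 74.9% and 77.5% of all genes), and in all 3 comparisons for 31. The exceptions were Gabrg1, Grin2c and Grin3b, all under 1 FPKM, whose intervals do not exclude changes beyond 2-fold.

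The signs of the subunits' fold changes were counted next. Against control 22 of 34 had a log2 fold change below 0, with a median of -0.08, beside a median of -0.00 over all genes, of which 49.8% were above 0. Against PA 23 of 34 were below 0, with a median of -0.06, beside 0.01 over all genes. Between PA and control the split was 18 above and 16 below, with a median of 0.02, beside -0.01 over all genes. In these bulk cultures, fewer cells of a type and less RNA per cell cannot be told apart. Groups did not overlap for 1 subunit that was higher in PA + PS2 than in control (Grik3), where 5.38% of all genes were so, and for 5 that were lower, which is 14.7% of the 34, where 6.54% of all genes were so. Those 5 were Grin3b, Gabra2, Gabra4, Gabrb1 and Gabrd. Between PA + PS2 and PA none was higher, where 3.32% of all genes were so, and 2 were lower (Grin2b and Grin2c), where 6.32% were so. Between PA and control, 2 were higher (Grik3 and Grm8; 1.97% of all genes) and 1 was lower (Grin3b; 2.07%).

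**Figure D3:**
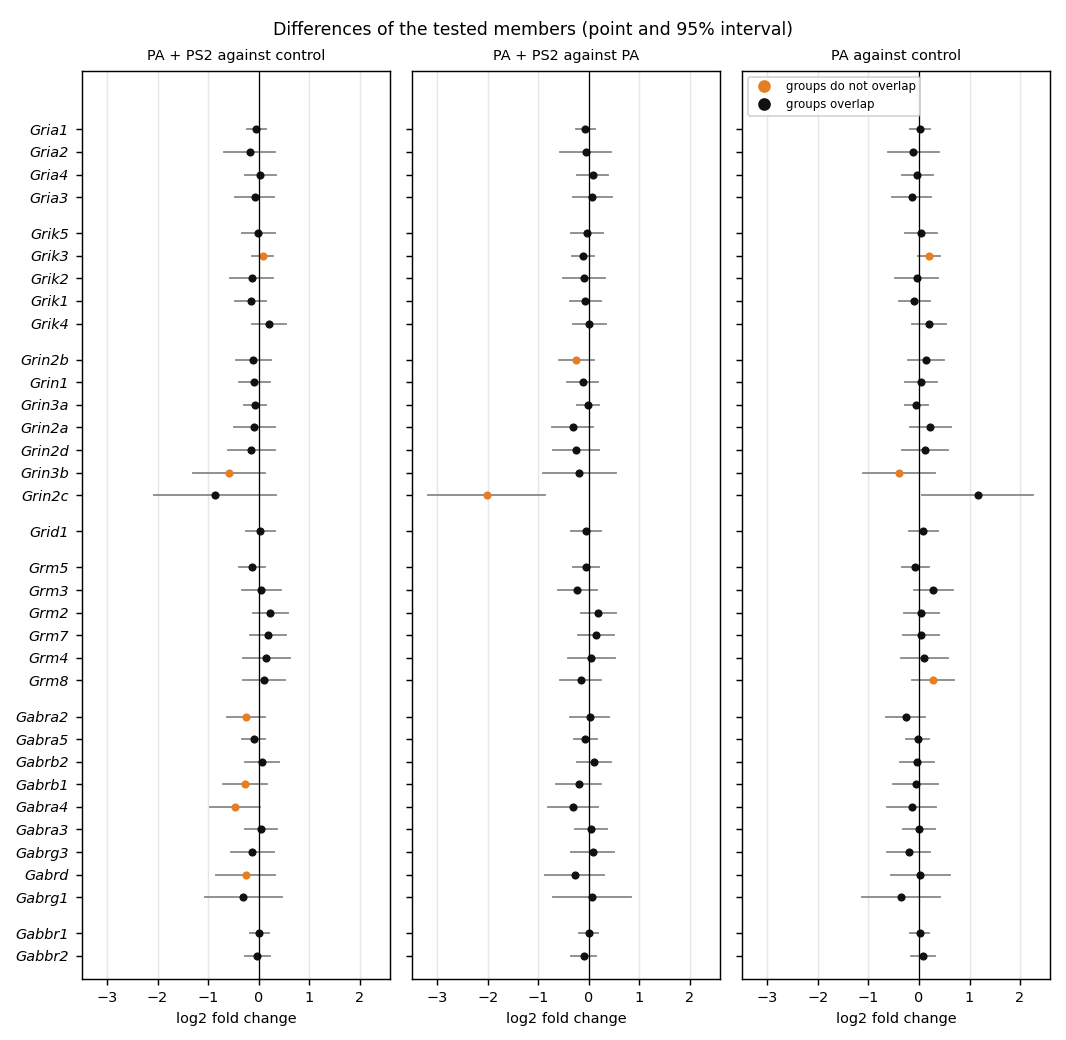
Log2 fold change with its 95% interval (x axis) of the 34 tested subunits in PA + PS2 against control, PA + PS2 against PA, and PA against control, with subunits whose groups do not overlap in orange. Most points lie near 0, and Grin2c stands apart at -2.02 in PA + PS2 against PA.

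The AMPA receptor genes were led by Gria1, whose subunit GluA1 is trafficked to synapses with activity. Gria1 was at 62.8, 64 and 70.6 FPKM in PA + PS2, 70.7, 66.8 and 69.4 FPKM in PA and 69.5, 63.4 and 70.6 FPKM in control, where the values of a group run over repeats 1, 2 and 3. The groups overlapped and Gria1 varied little, with PA + PS2 against control at -0.04 ± 0.09 on the log2 scale (SE; 95% interval -0.24 to 0.15). Gria2, whose edited GluA2 subunit makes the channel impermeable to calcium, varied far more between repeats. Gria2 was at 29.1, 29.5 and 23.3 FPKM in PA + PS2, 17.4, 38.6 and 29.2 FPKM in PA and 25.3, 34.4 and 32.4 FPKM in control. PA repeats 1 and 2 were its lowest and highest libraries, so that the group spanned both other groups, and the difference of PA + PS2 from control was -0.17 ± 0.23 (interval -0.68 to 0.33).

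Gria4 and Gria3, the less abundant AMPA genes, followed. Gria4 was at 11.4, 11.5 and 13.2 FPKM in PA + PS2, 9.23, 11.4 and 13.6 FPKM in PA and 10.7, 11.3 and 13.2 FPKM in control. Gria3 was at 3.82, 4.3 and 4.02 FPKM in PA + PS2, 2.65, 4.18 and 4.73 FPKM in PA and 3.8, 4.57 and 4.39 FPKM in control. Both were lowest in PA repeat 1 and highest in PA repeat 3, and their groups overlapped. Of the summed AMPA FPKM, Gria1 made up 60.3% ± 2.86 in PA + PS2, 61.8% ± 8.02 in PA and 59.3% ± 3.94 in control, and Gria2 25% ± 3.53 in PA + PS2, 24.8% ± 7.24 in PA and 26.8% ± 3.53 in control (SD, n = 3 each). The ratio of Gria1 to Gria2 was 2.16, 2.17 and 3.04 in PA + PS2, 4.06, 1.73 and 2.38 in PA and 2.74, 1.84 and 2.18 in control. The mean ratio over the 9 libraries was 2.48, and 1.80 on coding transcript length. Its highest and lowest values were both in PA, and PA + PS2 differed from control by 0.12 on the log2 scale (exact permutation p = 0.70, 2-sided, n = 3 each, where 0.10 is the smallest p possible).

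Among the kainate receptor genes, Grik5 took 60.8% of the summed FPKM. Its subunit GluK5 binds glutamate tightly but forms channels only together with GluK1, GluK2 or GluK3. Grik5 was at 53.6, 48.3 and 45.9 FPKM in PA + PS2, 63.1, 42.2 and 46.2 FPKM in PA and 55.7, 47.2 and 45.2 FPKM in control. In each group repeat 1 was the highest, and 80.1% of its log2 variance lay between repeat numbers, against 0.219% between groups. Grik3, a channel-forming subunit of low glutamate affinity, was the kainate gene whose groups separated. Grik3 was at 15.9, 16 and 15.9 FPKM in PA + PS2, 19.6, 15.6 and 16.7 FPKM in PA and 15.5, 14.5 and 15.2 FPKM in control. Every PA + PS2 and PA library was above every control library, by 0.08 ± 0.10 for PA + PS2 and 0.20 ± 0.10 for PA on the log2 scale, and the adjusted edgeR p was 1 in both.

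Grik2, Grik1 and Grik4 had lower levels. Grik2 was at 6.76, 7.18 and 6.85 FPKM in PA + PS2, 5.1, 8.86 and 8.2 FPKM in PA and 6.09, 7.44 and 9.34 FPKM in control. Grik1 was at 6.55, 5.08 and 5.06 FPKM in PA + PS2, 5.29, 6.49 and 5.67 FPKM in PA and 6.7, 5.34 and 6.56 FPKM in control. Grik4 was at 2.44, 2.57 and 2.92 FPKM in PA + PS2, 3.07, 2.21 and 2.58 FPKM in PA and 2.29, 2.07 and 2.49 FPKM in control. Grik2 was lowest in repeat 1 of each group, Grik1 showed no common order, and Grik4, which like Grik5 needs a partner, was highest in PA repeat 1. The ratio of Grik4 to Grik5 was 0.0456, 0.0532 and 0.0635 in PA + PS2, 0.0487, 0.0523 and 0.0559 in PA and 0.0412, 0.0439 and 0.0552 in control. In each repeat it was higher in PA + PS2 than in control, by 0.21 on the log2 scale in the mean, and the groups overlapped (exact permutation p = 0.30).

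Grin2b was the highest of the NMDA receptor genes, by a margin over Grin1 that depended on the length used. On exon length the means were 31.0 FPKM for Grin2b and 11.4 FPKM for Grin1. On coding transcript length they were 32.0 and 25.8 FPKM. Grin1 encodes the obligatory glycine-binding subunit. Grin1 was at 11.7, 10.8 and 10.1 FPKM in PA + PS2, 12.6, 12.8 and 10.1 FPKM in PA and 13.1, 12.2 and 9.11 FPKM in control. The groups overlapped, with PA + PS2 against control at -0.08 ± 0.14 and against PA at -0.12 ± 0.14 on the log2 scale. Grin2b encodes the glutamate-binding subunit that prevails in the embryonic and newborn forebrain. Grin2b was at 25.4, 29 and 31.2 FPKM in PA + PS2, 31.2, 31.9 and 38.4 FPKM in PA and 27.5, 25.1 and 39.3 FPKM in control. All PA + PS2 libraries were below all PA libraries, while control spanned both. The margin was a near tie, with PA + PS2 repeat 3 at 774.7 CPM and PA repeat 1 at 776.1 CPM. The difference of PA + PS2 from PA was -0.25 ± 0.16 on the log2 scale (interval -0.60 to 0.11; edgeR unadjusted p = 0.153, adjusted p = 0.999).

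Grin2a, the gene of the subunit that becomes prominent after birth, was low in every group. Grin2a was at 1.19, 1.39 and 1.41 FPKM in PA + PS2, 1.28, 2.13 and 1.56 FPKM in PA and 1.15, 1.44 and 1.65 FPKM in control. The highest library was PA repeat 2, and the groups overlapped. The log2 fold change of Grin2a was -0.31 ± 0.18 in PA + PS2 against PA (interval -0.72 to 0.09). Its edgeR p there was 0.115 before and 0.999 after adjustment, rank 2 of the 34 subunits. Fitting the block gave 0.0366 before adjustment and 0.488 after it, which did not pass. Against control the estimate was -0.09 ± 0.19. Both Grin2a and Grin2b thus had estimates below 0 against PA, which their ratio does not show. The ratio of Grin2a to Grin2b in FPKM was 0.0471, 0.0477 and 0.0453 in PA + PS2, 0.0411, 0.0667 and 0.0405 in PA and 0.0419, 0.0575 and 0.0421 in control. PA + PS2 libraries were close together, and repeat 2 of PA and of control stood above their other repeats. The mean over the 9 libraries was 0.0478, so that Grin2b was 20.9-fold above Grin2a, and it was 0.0567 when lengths were taken from coding transcripts. The log2 difference of the ratio was 0.00 for PA + PS2 against control, -0.04 for PA + PS2 against PA and 0.04 for PA against control, with an exact permutation p of 1.0 each. Leaving out 1 library at a time moved these differences over -0.08 to 0.15, -0.17 to 0.19 and -0.19 to 0.19, which reversed their signs. Of the summed GluN2 FPKM, Grin2b made up 91.2% ± 0.59 in PA + PS2, 90.1% ± 2.38 in PA and 90.7% ± 1.29 in control (SD, n = 3 each).

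**Figure D4:**
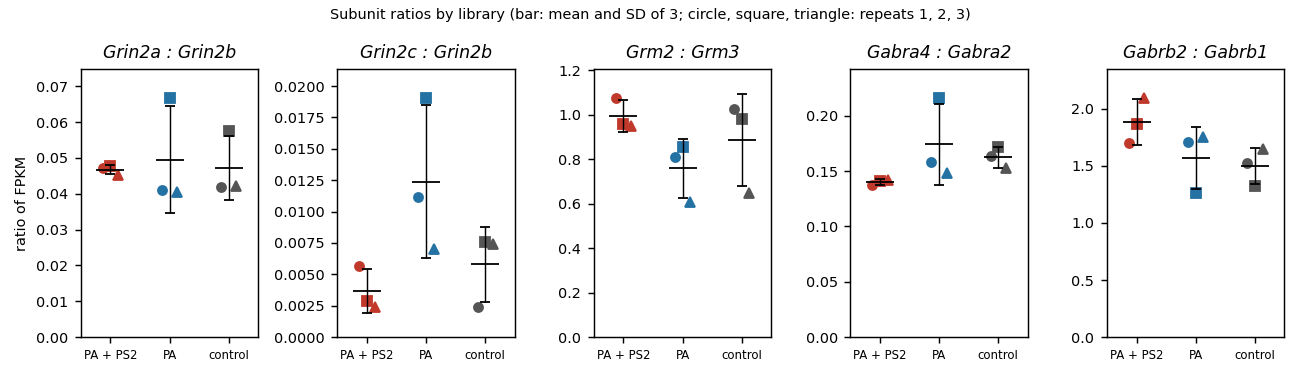
Ratio of the FPKM of 2 subunits by library for 5 pairs, with PA + PS2 left, then PA and control, repeats 1, 2 and 3 as circle, square and triangle, and bars for mean and SD of 3. The Grin2a to Grin2b ratio overlaps in all groups, and the other 4 pairs are those with groups that do not overlap in at least 1 comparison.

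Grin2c, whose subunit is best known from cerebellar granule cells and is also found in astrocytes, gave the largest estimate of all subunits but rested on few reads. It lies at ENSMUSG00000020734, chr11:115249169-115267243, minus strand. It had 15, 11 and 9 counts in PA + PS2, 39, 73 and 36 counts in PA and 8, 22 and 32 counts in control. On the per-length scale these were 0.143, 0.0842 and 0.0743 FPKM in PA + PS2, 0.348, 0.607 and 0.269 FPKM in PA and 0.0652, 0.19 and 0.292 FPKM in control. All PA libraries were above all PA + PS2 libraries, PA repeat 2 was the highest, and control overlapped both groups. The log2 fold change of PA + PS2 against PA was -2.02 ± 0.53 (interval -3.19 to -0.86), with an unadjusted edgeR p of 0.0027 and an adjusted p of 0.337 that did not pass. DESeq2 gave it an adjusted p of 0.0419, and edgeR without the filter on low counts gave 0.00103, so that the call depended on the tool and the filter. Over all alternatives its adjusted p ran from 0.00103 to 0.983. PA against control was 1.16 ± 0.50 (adjusted edgeR p of 1), and PA + PS2 against control was -0.86 ± 0.55 (interval -2.07 to 0.35). Markers of several other cell types also had lower levels in PA + PS2 than in PA, and none passed in edgeR without the repeat block. Of 10 astrocyte markers tested, 8 had a log2 fold change below 0 with a median of -0.71 over the list, 0 passed with the block, 2 passed by DESeq2, and Gjb6 was at 0. Of 9 fibroblast and mural markers 9 were below 0 (median -1.27), and 1 passed with the block. Among 10 proliferating and progenitor markers 8 were below 0 (median -0.87), and 3 passed with the block. Of the 12 oligodendrocyte lineage markers 4 were below 0 and 3 passed as lower with the block, while the median was 0.11. For microglia 5 of 8 (median -0.55) and for endothelium 3 of 4 (median -0.62) were below 0, with 0 passing. Neuronal markers went the other way, with 10 of 12 pan-neuronal (median 0.02) and 12 of 13 interneuron markers (median 0.12) above 0, and 0 passing. The part of these cells in the Grin2c values was not tested. The overlapping Gm25837 lies on the other strand, and the strand setting of the counting is not given in the sources used here.

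Grin2d, an NMDA gene of early development and interneurons, and the glycine-binding Grin3a had overlapping groups. Grin2d was at 1.28, 1.4 and 1.3 FPKM in PA + PS2, 2.17, 1.45 and 1.1 FPKM in PA and 1.55, 1.35 and 1.49 FPKM in control. Grin3a was at 3.19, 3.34 and 3.69 FPKM in PA + PS2, 3.31, 3.29 and 3.76 FPKM in PA and 3.61, 3.4 and 3.72 FPKM in control. Grin2d was highest in PA repeat 1 and lowest in PA repeat 3, and Grin3a varied little. Grin3b, whose exons overlap Tmem259 on the other strand, is a glycine-binding subunit best known from motor neurons. Grin3b was at 0.365, 0.234 and 0.278 FPKM in PA + PS2, 0.368, 0.356 and 0.274 FPKM in PA and 0.399, 0.369 and 0.545 FPKM in control. It had only 25, 20 and 22 counts in PA + PS2, 27, 28 and 24 counts in PA and 32, 28 and 39 counts in control. Every PA + PS2 and PA library was below every control library, but PA only by a near tie. PA repeat 1 was at 1.214 CPM and control repeat 2 at 1.217 CPM. The log2 fold changes were -0.59 ± 0.33 for PA + PS2 and -0.40 ± 0.32 for PA, and the adjusted edgeR p was 1 in both. All 7 NMDA genes had a log2 fold change below 0 in PA + PS2, both against control (median -0.10) and against PA (median -0.25). Both comparisons use the same PA + PS2 libraries, and none of the 7 passed in either.

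The delta subunit gene Grid1, which binds cerebellins at synapses rather than acting as an ordinary glutamate-gated channel, did not separate the groups. Grid1 was at 8.7, 8.38 and 9.63 FPKM in PA + PS2, 10.8, 7.43 and 9.57 FPKM in PA and 9.37, 8.19 and 8.56 FPKM in control. PA held both its highest and its lowest library.

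Grm5, the only group I metabotropic receptor listed, couples to phospholipase C and had 40.5% of the summed FPKM of the 7 listed receptors. Grm5 was at 14.9, 15.4 and 16.3 FPKM in PA + PS2, 14.5, 15.2 and 18.8 FPKM in PA and 16.4, 15.4 and 19.3 FPKM in control. Repeat 3 was highest in each group. Grm2 and Grm3 are the group II receptors that lower cyclic AMP, Grm2 mainly at nerve terminals and Grm3 also in glia. Grm2 was at 8.75, 8.34 and 9.29 FPKM in PA + PS2, 9.14, 6.54 and 7.46 FPKM in PA and 9.25, 6.97 and 6.18 FPKM in control. Grm3 was at 8.14, 8.71 and 9.79 FPKM in PA + PS2, 11.3, 7.64 and 12.3 FPKM in PA and 9.01, 7.1 and 9.53 FPKM in control. The 3 PA + PS2 libraries lay near the top of the range for Grm2, and PA repeats 1 and 3 were highest for Grm3. The ratio of Grm2 to Grm3 was 1.07, 0.958 and 0.948 in PA + PS2, 0.809, 0.856 and 0.609 in PA and 1.03, 0.982 and 0.649 in control. All PA + PS2 libraries were above all PA libraries, by 0.40 on the log2 scale (exact permutation p = 0.10, the smallest possible, and 0.96 adjusted over the 48 ratio comparisons), and control overlapped both. For the single genes, PA + PS2 against control was 0.23 ± 0.16 for Grm2, and PA + PS2 against PA was -0.23 ± 0.17 for Grm3. Grm3 in PA against control was 0.28 ± 0.18, with an adjusted edgeR p of 1.

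The group III receptors Grm4, Grm7 and Grm8, which sit mainly on nerve terminals, were lower. Grm7 was at 3.67, 3.06 and 4.42 FPKM in PA + PS2, 3.14, 3.14 and 3.81 FPKM in PA and 3.77, 2.78 and 3.23 FPKM in control. Grm4 was at 3.07, 2.72 and 3.05 FPKM in PA + PS2, 4.06, 2.02 and 2.47 FPKM in PA and 2.61, 2.72 and 2.6 FPKM in control. Grm8 was at 0.394, 0.436 and 0.386 FPKM in PA + PS2, 0.404, 0.525 and 0.433 FPKM in PA and 0.361, 0.391 and 0.377 FPKM in control. Grm7 and Grm4 overlapped between groups, with the lowest Grm4 library and the highest both in PA. Every PA library was above every control library for Grm8, by 0.27 ± 0.19 on the log2 scale (adjusted edgeR p of 1), and PA + PS2 overlapped both. Of the 6 tested metabotropic receptors, 5 were above 0 in PA + PS2 against control, with a median of 0.13, and none passed. PA against control also had 5 above 0 (median 0.08), and PA + PS2 against PA had 3 above and 3 below.

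Of the 9 GABA-A subunit genes, 7 had a log2 fold change below 0 in PA + PS2 against control, with a median of -0.25. Of the 9, 4 had groups that did not overlap, all of them lower, where 6.54% of all genes were so, and none passed. PA against control had 8 of the 9 below 0 (median -0.07), and groups overlapped for all. In PA + PS2 against PA, 5 were above 0 and 4 below (median 0.02). The summed markers of fibroblasts and mural cells, proliferating and progenitor cells, microglia and endothelium were lower in every PA + PS2 library than in every control library. The sums of pan-neuronal, interneuron and astrocyte markers overlapped between these groups. Above 0 were 8 of 12 pan-neuronal markers (median 0.02) and 10 of 13 interneuron markers (median 0.07). Of 10 astrocyte markers 7 were below 0 (median -0.16). Oligodendrocyte lineage sums overlapped, with 6 of 12 markers below 0. With the repeat block 3 of these 12 passed as lower and 1 as higher, and DESeq2 called 5. Olig1, Olig2 and Pdgfra were lower in every PA + PS2 library than in every control library, and Mbp, Mag, Cnp and Bcas1 were higher. The part of all these cells in the GABA-A values was not tested. Gabra2, Gabra4 and Gabrb1 lie with Gabrg1 in 1 gene cluster on chromosome 5. Gabra2, the gene of a synaptic alpha subunit abundant in young forebrain, lies at ENSMUSG00000000560, chr5:70957597-71095849, minus strand. Gabra2 was at 32.3, 32.3 and 33.6 FPKM in PA + PS2, 21.8, 36.9 and 38.4 FPKM in PA and 34.6, 40.8 and 41.5 FPKM in control. Each PA + PS2 library was below each control library, and PA repeat 1 was lowest of the 9. The difference of PA + PS2 from control was -0.25 ± 0.17 on the log2 scale (interval -0.63 to 0.13; adjusted edgeR p of 1).

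Gabra4, an alpha subunit found mainly outside synapses, had the smallest unadjusted p of the 34 subunits in PA + PS2 against control. It lies at ENSMUSG00000029211, chr5:71569749-71658308, minus strand. Gabra4 was at 4.44, 4.58 and 4.77 FPKM in PA + PS2, 3.46, 7.98 and 5.7 FPKM in PA and 5.66, 7.0 and 6.33 FPKM in control. The PA + PS2 libraries were within a narrow range below all control libraries, while PA held the lowest and the highest library. The means were 4.59 ± 0.168 FPKM in PA + PS2, 5.71 ± 2.26 FPKM in PA and 6.33 ± 0.669 FPKM in control (SD, n = 3 each). The log2 fold change of PA + PS2 against control was -0.46 ± 0.23 (interval -0.96 to 0.03), with an unadjusted edgeR p of 0.0652 and an adjusted p of 0.965, and with the repeat block 0.0199 and 0.391. Against PA the estimate was -0.31 ± 0.23, and it turned to 0.02 without PA repeat 2. The ratio of Gabra4 to Gabra2 was 0.137, 0.142 and 0.142 in PA + PS2, 0.158, 0.216 and 0.148 in PA and 0.164, 0.172 and 0.153 in control. It was lower in all PA + PS2 libraries than in any other, with differences of -0.21 against control and -0.29 against PA on the log2 scale, each with an exact permutation p of 0.10 and 0.96 adjusted over the 48 comparisons.

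Gabrb1, a beta subunit gene that starts beside Gabra4 on the opposite strand, lies at ENSMUSG00000029212, chr5:71658113-72149037, plus strand. Gabrb1 was at 6.24, 6.32 and 5.93 FPKM in PA + PS2, 4.6, 9.52 and 7.14 FPKM in PA and 6.95, 8.36 and 6.98 FPKM in control. All PA + PS2 libraries were below all control libraries, with a log2 fold change of -0.27 ± 0.20 (adjusted edgeR p of 1), and PA again held the lowest and the highest library. The first exons of Gabra4 and Gabrb1 overlap, so reads there cannot be assigned with certainty. Gabrb2, the other listed beta gene, did not follow. Gabrb2 was at 10.6, 11.8 and 12.4 FPKM in PA + PS2, 7.85, 12 and 12.5 FPKM in PA and 10.6, 11.1 and 11.5 FPKM in control. Its groups overlapped, and PA + PS2 against control was 0.07 ± 0.15. The ratio of Gabrb2 to Gabrb1 was 1.7, 1.86 and 2.1 in PA + PS2, 1.71, 1.26 and 1.75 in PA and 1.52, 1.33 and 1.65 in control. The mean ratio over the 9 libraries was 1.65, and 2.62 on coding transcript length. Every PA + PS2 library was above every control library, by 0.33 on the log2 scale (exact permutation p = 0.10, adjusted 0.96), and PA overlapped both.

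Gabrg1, a gamma subunit gene of the same cluster, was low and its groups overlapped. Gabrg1 was at 0.422, 0.505 and 0.708 FPKM in PA + PS2, 0.257, 0.681 and 0.63 FPKM in PA and 0.465, 0.751 and 0.802 FPKM in control. Repeat 1 was the lowest in each group, and PA + PS2 against control was -0.30 ± 0.35 (interval -1.06 to 0.47). Gabrd, whose delta subunit serves tonic inhibition outside synapses, had 36, 38 and 33 counts in PA + PS2, 47, 47 and 39 counts in PA and 43, 44 and 38 counts in control. On the per-length scale these were 0.602, 0.509 and 0.477 FPKM in PA + PS2, 0.735, 0.685 and 0.51 FPKM in PA and 0.614, 0.665 and 0.608 FPKM in control. The PA + PS2 libraries lay below the control libraries by a narrow margin, with a difference of -0.25 ± 0.27 (interval -0.83 to 0.33; adjusted edgeR p of 1).

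The other alpha genes and Gabrg3 did not separate the groups. Gabra5 was at 26.6, 28.3 and 29.6 FPKM in PA + PS2, 27, 33.4 and 28.4 FPKM in PA and 30.5, 31.7 and 28.3 FPKM in control. Gabra3 was at 4.83, 4.63 and 4.61 FPKM in PA + PS2, 3.69, 4.66 and 5.25 FPKM in PA and 4.83, 4.73 and 4.07 FPKM in control. Gabrg3 was at 1.66, 1.59 and 1.84 FPKM in PA + PS2, 1.15, 1.75 and 1.94 FPKM in PA and 1.64, 1.65 and 2.28 FPKM in control. Gabra5, which encodes an extrasynaptic alpha subunit and lies with Gabrg3 on chromosome 7, was second to Gabra2 among the 4 listed alpha genes, with 39.8% of their summed FPKM against 46.5%. Gabra3 and Gabrg3 were lowest in PA repeat 1.

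**Figure D5:**
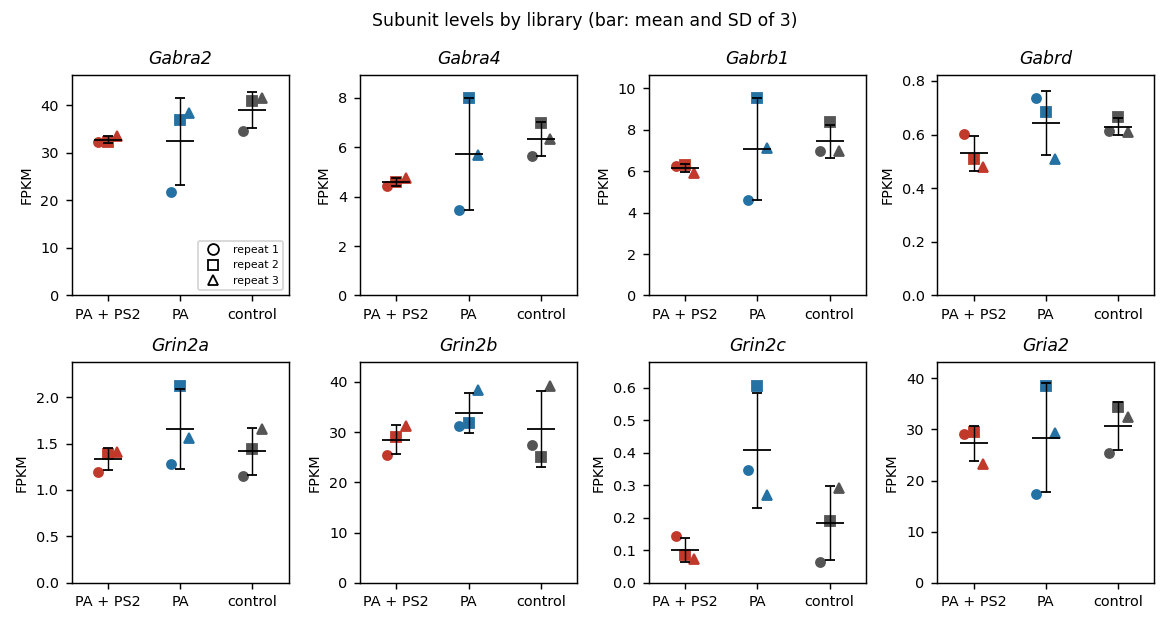
Level in FPKM of 8 subunits by library, with PA + PS2 left, then PA and control, repeats 1, 2 and 3 as circle, square and triangle, and bars for mean and SD of 3. For Gabra2, Gabra4, Gabrb1 and Gabrd the PA + PS2 libraries lie below all control libraries, and for Grin2b and Grin2c below all PA libraries. For Gabrd and Grin2b the margin is narrow.

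Of the GABA-B subunits, Gabbr1 varied little between libraries. Gabbr1 binds GABA and Gabbr2 carries the G protein coupling, and a working receptor needs both. Gabbr1 was at 78.3, 76.6 and 75.4 FPKM in PA + PS2, 79.8, 75.5 and 75.3 FPKM in PA and 81.5, 74.8 and 72.4 FPKM in control. Gabbr2 was at 23.7, 23.8 and 25.8 FPKM in PA + PS2, 29.8, 22.6 and 26.3 FPKM in PA and 26.9, 23.8 and 23.8 FPKM in control. Groups overlapped for both genes, with PA + PS2 against control at 0.01 ± 0.09 for Gabbr1 (interval -0.18 to 0.20) and -0.02 ± 0.11 for Gabbr2 (interval -0.26 to 0.22). The ratio of Gabbr2 to Gabbr1 was 0.302, 0.311 and 0.342 in PA + PS2, 0.373, 0.299 and 0.349 in PA and 0.33, 0.318 and 0.329 in control. It overlapped in all groups and was highest in PA repeat 1.

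PA repeat 1 was the library most often at an extreme for the subunits, and it was so over all genes too. It was the highest or lowest of the 9 libraries for 21 of 34, against 45.6% of all genes. It was lowest for 12, among them Gria2, Gria3, Gria4, Grik2 and Grm5 and 7 of the 9 GABA-A genes, and highest for 9, among them Gria1, Grik3, Grik5 and Gabbr2. PA repeat 2 was highest or lowest for 11 of 34, against 32.7% of all genes. The log2 spread within a group was largest in PA for 25 of 34 subunits (56.8% of all genes) and smallest in PA + PS2 for 24 (53.2% of all genes). Across subunits, a median of 48.2% of the log2 variance lay between repeat numbers and 14.6% between groups, beside 40.5% and 15.9% over all genes. Over genes with a mean of at least 10 CPM the medians were 47.9% and 13.8%, close to those of the subunits.

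The partners of these receptors were also without a call. Of the 18 AMPA and kainate auxiliary genes tested, 17 glutamate receptor scaffolds, 16 GABA receptor partners, 18 genes of transmitter synthesis and transport and 7 regulators of editing and transcription, 0 passed in either direction in any comparison by edgeR, with or without the repeat block, or by DESeq2. At an unadjusted edgeR p under 0.05 there were 2 auxiliary genes in PA + PS2 against control, where 5.63% of all genes were so. There were 1 partner and 1 transport gene in PA + PS2 against PA (5.61% of all genes). In PA against control there were 1 auxiliary and 1 transport gene (1.22% of all genes). Cnih3, a cornichon that slows AMPA receptor closing, was at 51.9, 57.9 and 59.2 CPM in PA + PS2, 55.2, 49.3 and 47.3 CPM in PA and 48.6, 48.1 and 43.7 CPM in control. Its PA + PS2 libraries were all above the control libraries, by 0.27 ± 0.10 on the log2 scale. Cacng5, a transmembrane AMPA receptor regulatory protein, was at 14.6, 14 and 15.1 CPM in PA + PS2, 13, 16.2 and 12.4 CPM in PA and 20.3, 20.8 and 15.2 CPM in control. Its PA + PS2 libraries were all below the control libraries, with a log2 fold change of -0.37 ± 0.15, and PA against control was -0.44 ± 0.16 with overlapping groups. Slc1a3, the glial glutamate transporter GLAST and an astrocyte marker, was at 24.9, 32.7 and 36.1 CPM in PA + PS2, 51.2, 59.5 and 62.7 CPM in PA and 22.3, 53.1 and 70.8 CPM in control. It was lower in all PA + PS2 libraries than in all PA libraries, with a log2 fold change of -0.89 ± 0.31, and control repeat 1 was the lowest of all.

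Gabarap, which binds GABA-A gamma subunits and aids their trafficking, was at 196, 185 and 209 CPM in PA + PS2, 171, 156 and 179 CPM in PA and 190.2, 167 and 185 CPM in control. All PA + PS2 libraries were above all PA libraries, by 0.22 ± 0.10 on the log2 scale. Gad1, the GABA-synthesising enzyme, was at 222, 201 and 221 CPM in PA + PS2, 189.5, 205 and 202 CPM in PA and 239, 212 and 235 CPM in control. All PA libraries were below all control libraries, as for 2.07% of all genes, with a log2 fold change of -0.20 ± 0.09. Of the others with the smallest p in their lists, PA + PS2 against control was -0.21 ± 0.11 for the scaffold Dlg1, 0.22 ± 0.12 for the splicing factor Rbfox1, -0.32 ± 0.21 for the GABA-B partner Kctd8 and 0.32 ± 0.20 for the vesicular glutamate transporter Slc17a7, none passing.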

How the data were processed

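RNA was sequenced from 9 libraries, 3 per group, with groups taken from the sample titles. The deposited files hold raw counts per Ensembl gene that the authors made; per the submitters' processing notes the tools were cutadapt 4.2, STAR 2.7.5, HTSeq 2.0.2 and DESeq2 1.14.1 with build mm10. Strand setting and annotation release are not given in the sources used here. The labels name both polyA RNA and a total RNA kit.

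Symbols, coordinates and exon lengths came from GENCODE M21 (mm10), which matched 54165 of 54232 identifiers and 35 of 35 subunits. The members and the gene lists were chosen with earlier results of these data known. Counts were tested in edgeR 4.0.16 by its quasi-likelihood F test (R 4.3.3; trimmed mean of M values; filterByExpr with minimum count 10 and total 15; all 9 libraries; 6 residual degrees of freedom), 2-sided, adjusted by Benjamini and Hochberg over 15712 genes holding 99.9% of the counts, with a threshold of 0.05. The common coefficient of biological variation was 16.6%. FPKM is CPM on the scaled library sizes per kilobase of union exon length. Standard errors of fold changes were obtained by dividing the size of the log2 change by the root of its F statistic, and 95% intervals from its degrees of freedom. The 16 subunit ratios were compared by exact permutation over libraries. Tables were summarised with Python 3.11.15, and the fit was run on simulated counts with known changes in PA. Those counts held no differences between repeat numbers, so they do not show how the fit behaves where repeats differ.

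Named by rule were the subunits of the ratio pairs, per comparison the 5 subunits with the smallest p, and up to 3 genes per partner list; some of the partner genes, and the subunits whose groups did not overlap, were chosen for the text after their values were seen. Alternatives were DESeq2 1.42.0, its size factors, no filter, 2 groups only, the repeat block and leaving out libraries. Same-numbered libraries deviated together in PA and control (correlations 0.498, 0.407 and 0.371) and in PA + PS2 and control (0.240, 0.260 and 0.207), so the numbers were taken to pair these libraries, from the data and not the labels; in PA + PS2 and PA they were 0.048, 0.304 and 0.376, not all over 0.1. Intervals reflect the spread between libraries and the counting error.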

Additional observations from a re-analysis of the deposited data

How the results depend on the processing

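No subunit passed in PA + PS2 against control or in PA against control under any alternative; in PA + PS2 against PA, 1 (Grin2c, log2 fold change -2.03 and -2.02) passed by DESeq2 and without the filter. Of the 15 subunit fold changes named by their p, 14 kept their sign; Gabra4 in PA + PS2 against PA ran from -0.57 to 0.018 on leaving out 1 library. Genes passing in PA + PS2 against control numbered 7, and 17 with DESeq2 size factors, 224 by DESeq2, 365 without the filter, 28 with 2 groups only, 184 with the repeat block, 125 without repeat 1 of every group (chosen after seeing the data) and 0 to 175 on leaving out 1 library: 175 without control repeat 1, 0 without control repeat 2, control repeat 3 or PA + PS2 repeat 1, 1 without PA + PS2 repeat 3, 2 without PA + PS2 repeat 2 and 18 without PA repeat 1. In PA + PS2 against PA, 0 genes passed, and 128 by DESeq2, 330 without the filter, 57 with the repeat block, 3 without repeat 1 and 0 to 37 on leaving out 1 library; the block left Grin2c at an adjusted edgeR p of 0.173. In PA against control 23 genes passed without the filter and 0 otherwise. The Grin2a to Grin2b differences ran from -0.075 to 0.15, -0.17 to 0.19 and -0.19 to 0.19 on leaving out 1 library, and the first was -0.081 without repeat 1. Of the 16 ratios in each comparison, those whose groups did not overlap numbered 2, 3 and 0, which is 5 of 48 in all. With 3 against 3 libraries, separation in either direction has a probability of 0.10 by permutation, and it is larger with fewer libraries. On leaving out 1 library the numbers were 2 to 5, 3 to 5 and 0 to 5. The block changed no subunit's call. The cause of these shifts was not tested. At this depth Grin2c had 8 to 73 counts per library, and Grm6, with 2 counts in all, could not be tested.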
